A study of Mus musculus with 8 samples.

Results

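The genes described are 9 markers of bile duct epithelium, Krt7, Krt19, Epcam, Cldn4, Prom1, Muc1, Sox9, Cftr and Anxa13. They were taken by symbol from the deposited counts, where 9 of 9 were present among 25078 genes. All 9 passed the filter on low counts that left 14438 genes for testing. Messenger RNA had been sequenced from the livers of 8 male C57/BL6 mice. Per the labels, 3 livers came from mice whose genotype is given as hemizygous for Midn and whose titles read Het, here called het-labelled, and 5 came from wild-type mice. The knocked-out allele is global, so it is carried by every cell type of the liver, and the submitters used heterozygotes because homozygous knockout embryos mostly died. Both groups had eaten the same Western-style diet, rich in fructose, cholesterol and fat, for 25 weeks. The age of the mice at tissue collection is not stated in the labels.

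Bile ducts are lined by cholangiocytes, epithelial cells that add fluid and bicarbonate to bile. Outside the ducts, hepatocytes carry little or none of the simple keratins Krt7 and Krt19. In chronic liver injury, small duct-like structures spread from the portal tracts into the lobule. This ductular reaction is known from human fatty liver disease and from mouse injury models, where its cells carry Krt19, Epcam and Sox9, and where Sox9 can also be found in hepatocytes next to the portal tract. A change in these genes in bulk liver RNA can reflect, for example, fewer duct cells or less RNA per duct cell. Such readings cannot be told apart here.

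Counts assigned to genes totalled between 17508221 and 24916239 in het-labelled libraries and between 18687680 and 21064473 in wild-type libraries. Midn, the targeted gene, had 60.4, 39.1 and 51.7 CPM in het-labelled libraries 1 to 3, against 68.7, 39.8, 71.5, 41.7 and 29.3 CPM in wild-type libraries 1 to 5. CPM are counts scaled to a common library total. The Midn ranges overlapped, with means of 50.4 ± 10.7 CPM in het-labelled livers and 50.2 ± 18.8 CPM in wild-type livers (SD, n = 3 and n = 5), so its RNA does not separate the labels. The part of Midn that was deleted is not stated in the labels. Libraries also differed in Rpph1, the RNA of ribonuclease P, a short transcript without a poly(A) tail. It took 0.229%, 0.399% and 0.288% of counts in het-labelled libraries 1 to 3, against 0.331%, 0.899%, 0.304%, 0.673% and 1.06% in wild-type libraries 1 to 5. Alb, which hepatocytes make for the blood, ran from 29292 to 53252 CPM in het-labelled livers and from 25540 to 31115 CPM in wild-type livers.

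All 9 duct genes were highest in the same 4 livers. These were het-labelled library 2 and wild-type libraries 1, 2 and 3, in 9 of 9 genes, whereas 9.59% of all tested genes had those as their 4 highest libraries. Wild-type library 3 was the highest of all 8 in 8 genes, and wild-type library 2 was the highest for Prom1. The lowest value lay in het-labelled library 3 for 5 genes, in het-labelled library 1 for 2 and in wild-type library 4 for 2. Summed over the 9 genes, the level was 20.9, 83.1 and 20.8 CPM in het-labelled libraries 1 to 3, against 86.6, 110.7, 177.7, 21.7 and 33.4 CPM in wild-type libraries 1 to 5. The 3 highest sums were all in wild-type livers, and het-labelled library 2, just below them, lay inside the wild-type range for 9 of 9 genes. The 4 livers did not share a genotype, nor an Rpph1 share. Rpph1 was at 0.399% in het-labelled library 2, and at 0.331%, 0.899% and 0.304% in wild-type libraries 1, 2 and 3. Those 4 livers had the most genes with a count. These numbered 17072 in het-labelled library 2 and 17310, 17199 and 17607 in wild-type libraries 1, 2 and 3. The other livers had 16698 to 16825. TMM factors, which scale library totals, were also highest in the 4, at 1.06 and at 1.14, 1.03 and 1.27. The other livers had 0.852 to 0.955. The part of these traits in the duct gene levels was not tested.

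**Figure D1:**
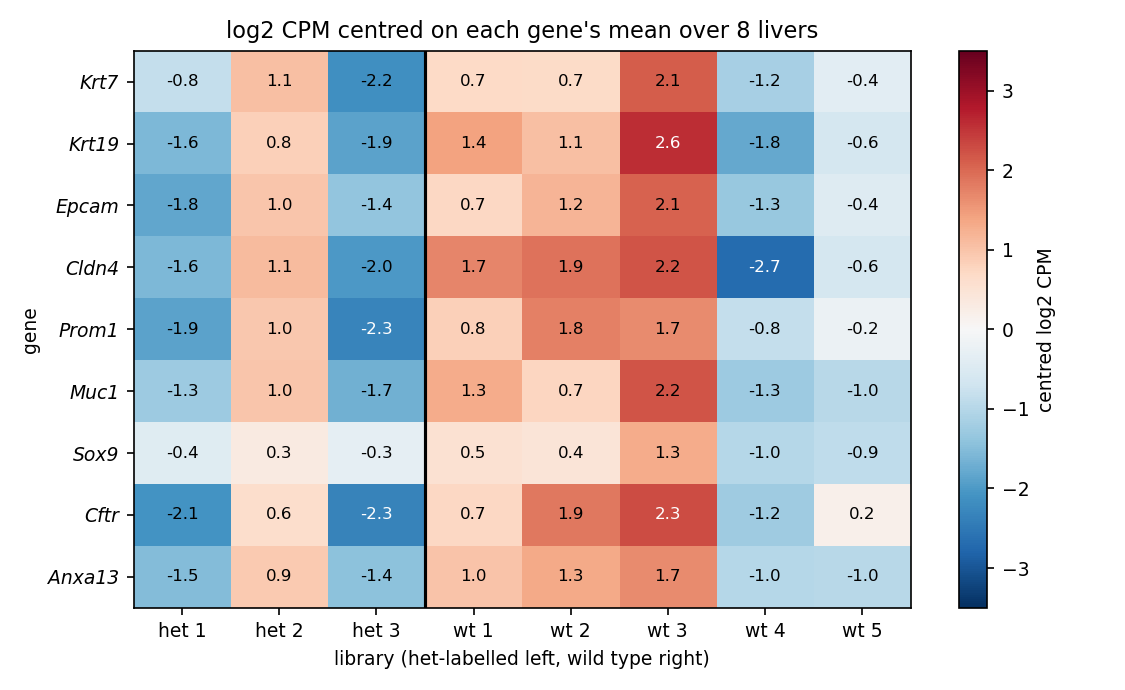
Log2 CPM of each of the 9 duct genes in each library after subtracting the gene's mean over the 8 libraries, with het-labelled libraries to the left of wild-type libraries. All 9 genes are above their mean in het-labelled library 2 and in wild-type libraries 1, 2 and 3.

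The keratins form the intermediate filaments of duct epithelium, Krt7 as the type II partner and Krt19 as the type I partner. Krt7 had 1.34, 5.22 and 0.476 CPM in het-labelled libraries 1 to 3, against 4.04, 3.97, 11.1, 1.04 and 1.87 CPM in wild-type libraries 1 to 5. Krt19 had 0.783, 4.57 and 0.619 CPM in the het-labelled libraries, against 6.93, 5.36, 15.6, 0.659 and 1.63 CPM in the wild-type libraries. For both keratins the groups overlapped, and wild-type library 4 lay between het-labelled libraries 1 and 3. These low values rested on few reads, 10 for Krt7 in het-labelled library 3 and 12 for Krt19 in wild-type library 4. Krt7 lies on chromosome 15 at 101412403 to 101427806 on the plus strand, and Krt19 on chromosome 11 at 100140811 to 100145926 on the minus strand, in the deposited coordinates of build mm10.

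Epcam, a homophilic adhesion molecule of the basolateral membrane, had 2.53, 18.2 and 3.48 CPM in het-labelled libraries 1 to 3, against 15.2, 21.1, 38.4, 3.62 and 6.74 CPM in wild-type libraries 1 to 5. Cldn4, a claudin of the tight junctions that seal the duct lumen, had 0.230, 1.99 and 0.143 CPM in the het-labelled libraries, against 3.06, 3.55, 4.37, 0.0549 and 0.542 CPM in the wild-type libraries. Cldn4 was the scarcest of the 9, and wild-type library 4 held 1 read of it. Epcam in het-labelled libraries 1 and 3 was below every wild-type library, by a narrow margin against wild-type library 4, while Cldn4 in wild-type library 4 was below every other liver. Epcam lies on chromosome 17 at 87635979 to 87651127 on the plus strand, and Cldn4 on chromosome 5 at 134945124 to 134946934 on the minus strand.

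Prom1 and Muc1 encode proteins of the apical membrane that faces the bile. Prom1, prominin-1 or CD133, sits on membrane protrusions and is used to sort progenitor-like duct cells. It had 2.03, 14.9 and 1.48 CPM in het-labelled libraries 1 to 3, against 13.8, 26.0, 24.4, 4.28 and 6.56 CPM in wild-type libraries 1 to 5. Muc1, a transmembrane mucin, had 1.15, 5.87 and 0.858 CPM in the het-labelled libraries, against 7.37, 5.00, 14.0, 1.15 and 1.44 CPM in the wild-type libraries. Prom1 in het-labelled libraries 1 and 3 was less than in any wild-type library, while Muc1 in het-labelled library 1 and wild-type library 4 was level at 3 digits. Across the 9 genes, het-labelled libraries 1 and 3 were both below every wild-type library in 5, namely Epcam, Prom1, Muc1, Cftr and Anxa13. That count leaves out het-labelled library 2, which lay inside the wild-type range for all 9 genes. How often the same order occurs over all tested genes was not computed. Muc1 rested on 25 reads in het-labelled library 1 and 21 in wild-type library 4. The 95% counting intervals of het-labelled libraries 1 and 3 overlapped that of wild-type library 4 for Epcam, Muc1, Cftr and Anxa13. For Prom1 they did not. Prom1 lies on chromosome 5 at 43993622 to 44101736 on the minus strand, where the GENCODE annotation also has Gm42716 on the same strand and Gm16401 on the opposite one. Muc1 lies on chromosome 3 at 89229056 to 89233381 on the plus strand. Whether counting used strand is given in neither the labels nor the processing notes. Overlap was read from gene spans and not exons, so whether these transcripts added reads to Prom1 is not known.

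**Figure D2:**
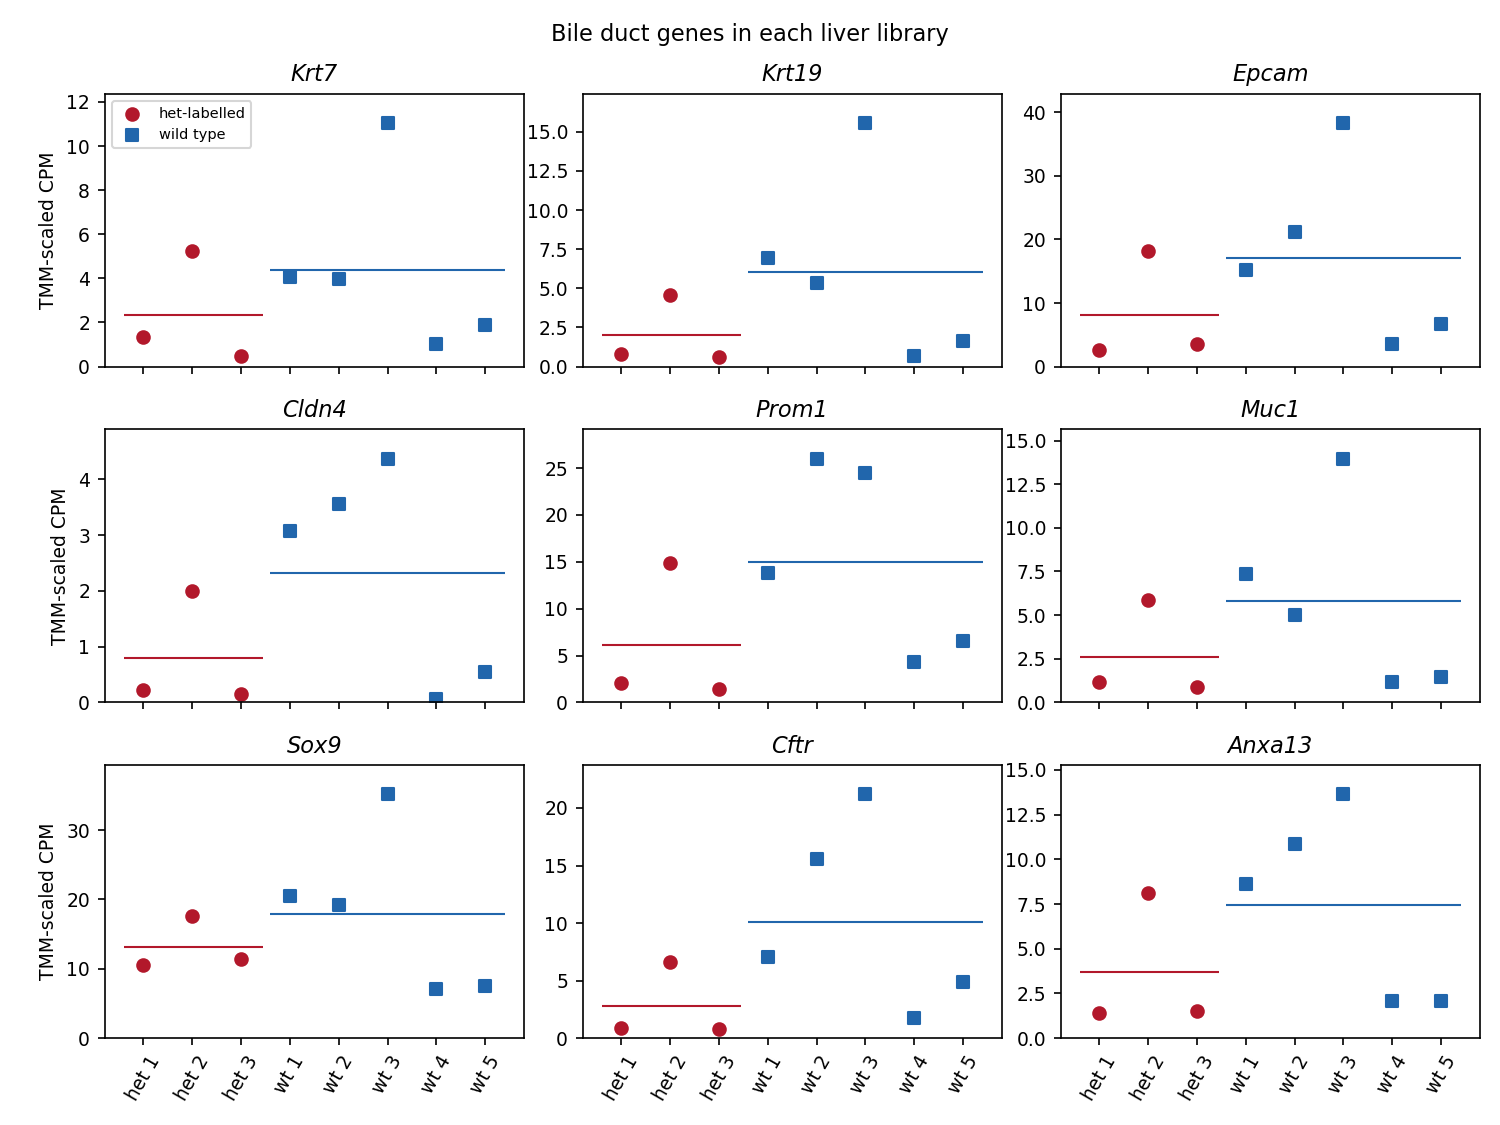
CPM of each duct gene on a linear axis, 1 point per library, with the 3 het-labelled libraries left of the 5 wild-type libraries. In every panel the groups overlap, and het-labelled library 2 stands apart from het-labelled libraries 1 and 3.

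Because these genes had the same 4 highest livers, the 250 bases before their start sites were searched for motifs of factors known in duct epithelium. RefSeq promoters of build GRCm38.p6 matched 6 of the 9 genes, Krt7, Epcam, Cldn4, Prom1, Muc1 and Cftr, and each had a start equal to the gene's 5′ end in the deposited table. Krt19, Sox9 and Anxa13 were not matched. The 4 promoters below are the 2 that held the grainyhead-like motif, Prom1 and Muc1, and, for comparison, 2 with no match to any motif searched, Epcam and Krt7. They are printed 5′ to 3′ on the gene's strand and ending at the base before the start site, with motif matches in capitals.
Prom1, chr5:44101737-44101986, minus strand: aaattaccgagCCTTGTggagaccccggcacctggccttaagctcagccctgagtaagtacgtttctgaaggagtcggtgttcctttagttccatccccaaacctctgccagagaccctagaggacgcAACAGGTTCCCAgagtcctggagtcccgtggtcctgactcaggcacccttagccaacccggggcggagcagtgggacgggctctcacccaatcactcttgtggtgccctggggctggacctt
Muc1, chr3:89228806-89229055, plus strand: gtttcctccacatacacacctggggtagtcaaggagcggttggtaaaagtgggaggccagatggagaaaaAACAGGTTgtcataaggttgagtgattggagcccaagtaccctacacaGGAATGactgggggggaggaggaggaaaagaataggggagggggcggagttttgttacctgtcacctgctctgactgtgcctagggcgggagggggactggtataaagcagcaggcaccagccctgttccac
Epcam, chr17:87635729-87635978, plus strand: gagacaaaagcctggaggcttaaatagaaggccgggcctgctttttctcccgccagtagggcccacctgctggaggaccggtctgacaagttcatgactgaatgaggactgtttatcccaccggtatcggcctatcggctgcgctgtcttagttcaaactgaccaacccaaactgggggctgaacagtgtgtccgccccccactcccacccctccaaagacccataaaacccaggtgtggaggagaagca
Krt7, chr15:101412153-101412402, plus strand: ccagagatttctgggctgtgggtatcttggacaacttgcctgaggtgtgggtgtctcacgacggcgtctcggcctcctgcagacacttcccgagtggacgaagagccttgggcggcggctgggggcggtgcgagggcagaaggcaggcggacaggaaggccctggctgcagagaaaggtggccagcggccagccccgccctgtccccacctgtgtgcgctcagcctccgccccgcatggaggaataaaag

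The motif of grainyhead-like factors, AACCNGTT on either strand, occurred in 2 of the 6 matched genes and in 1.79% of 32851 promoters. It lay 122 bases before the start in Prom1 and 180 bases before it in Muc1, and a second annotated Prom1 start had it 45 bases upstream. In Prom1 the match overlapped one to TGGGAA, the motif of the Notch effector RBPJ, which 21.6% of promoters held and 1 of the 6 genes. Muc1 also held GGAATG, the TEAD motif, 132 bases before its start, as 12.6% of promoters did and 1 of the 6 genes. ACAANG, a SOX motif, was found in Prom1 at 239 bases and in Cldn4 at 123 bases, 2 of the 6 genes against 36.3% of promoters. GTTAAT, one arm of the HNF1 palindrome, was in 0 of the 6 genes and in 6.43% of promoters. The windows of Krt7, Epcam and Cftr held none of these letters. The gene counts took a match at any annotated start, with Prom1 searched at 2, whereas the percentages counted single promoter entries. A match describes the sequence and is not evidence of binding.

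Sox9 encodes the transcription factor that marks duct cells from their first specification in the embryo. It had 10.5, 17.7 and 11.4 CPM in het-labelled libraries 1 to 3, against 20.6, 19.2, 35.2, 7.03 and 7.59 CPM in wild-type libraries 1 to 5. Its order differed from that of the other 8 genes, since het-labelled libraries 1 and 3 were above wild-type libraries 4 and 5. The highest het-labelled library was 1.68 times the lowest for Sox9 (95% counting interval 1.41 to 2.0), whereas for the other 8 genes this ratio ran from 5.69 for Anxa13 to 13.9 for Cldn4. Sox9 lies on chromosome 11 at 112782210 to 112787757 on the plus strand.

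Sox9 accordingly made up a different share of the summed counts of the 9 genes from liver to liver. The share was 50.2%, 21.2% and 55.0% in het-labelled libraries 1 to 3, out of 454, 1545 and 436 reads. In wild-type libraries 1 to 5 it was 23.7%, 17.3%, 19.8%, 32.4% and 22.7%, out of 1951, 2148, 4758, 395 and 554 reads. The exact (Clopper-Pearson) 95% intervals of het-labelled libraries 1 and 3, 45.5% to 54.9% and 50.2% to 59.8%, lay above that of wild-type library 4, 27.8% to 37.3%, although the summed level in these 3 livers was nearly equal. The share averaged 42.2 ± 18.3% in het-labelled livers and 23.2 ± 5.73% in wild-type livers (SD, n = 3 and n = 5). That difference of 19.0 percentage points was tested by exact permutation over 56 assignments, two-sided, with p = 0.143, where the smallest possible p is 0.0357. It was 29.4 percentage points without het-labelled library 2, with an exact permutation p = 0.0952, the smallest that 2 livers against 5 allow. The tests of the Sox9 share were not planned and were added after the data were seen. The intervals cover counting error only.

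**Figure D3:**
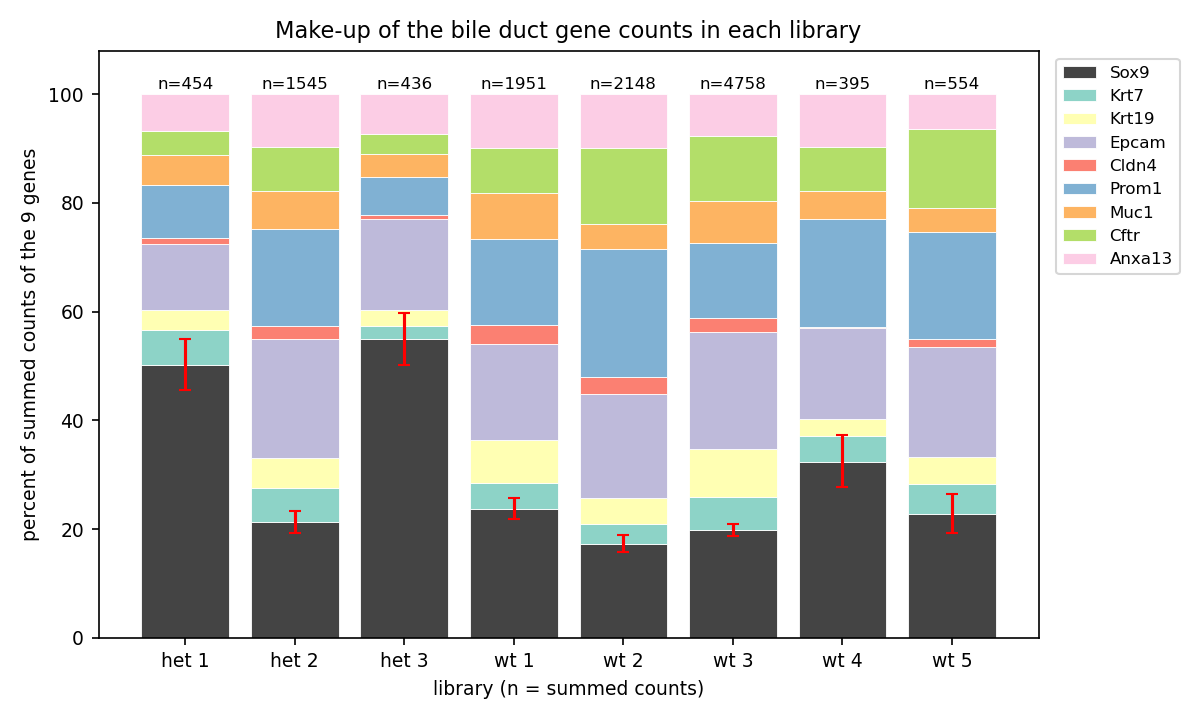
Share of each duct gene in the summed counts of the 9 genes, in percent, for each library, with het-labelled libraries left of wild-type libraries. Sox9 takes 50.2% and 55.0% in het-labelled libraries 1 and 3, and 32.4% or less in the other 6 libraries.

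Cftr, the apical chloride channel through which secretin drives fluid into bile, had 0.922, 6.62 and 0.762 CPM in het-labelled libraries 1 to 3, against 7.06, 15.6, 21.2, 1.76 and 4.88 CPM in wild-type libraries 1 to 5. Anxa13, an annexin that binds epithelial membranes in a calcium-dependent way, had 1.43, 8.13 and 1.53 CPM in the het-labelled libraries, against 8.62, 10.9, 13.6, 2.09 and 2.11 CPM in the wild-type libraries. Cftr in het-labelled library 2 was also below wild-type libraries 1, 2 and 3, and of the wild-type libraries only 4 and 5 were lower than it. Cftr took 5.35 ± 2.29% of the summed counts of the 9 genes in het-labelled livers and 11.4 ± 3.14% in wild-type livers (SD, n = 3 and n = 5). Cftr lies on chromosome 6 at 18170687 to 18322769 on the plus strand. Its span overlaps Gm15595 on its own strand and Gm15592 on the other, and whether their exons overlap was not checked. Anxa13 lies on chromosome 15 at 58341464 to 58389274 on the minus strand.

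Among the 5 wild-type livers alone, which shared strain, sex, diet and genotype, the spread was wide. The highest wild-type library exceeded the lowest by 5.00 times for Sox9 (95% counting interval 4.15 to 6.06), 6.07 times for Prom1 (4.78 to 7.81) and 6.53 times for Anxa13 (4.67 to 9.38). It did so by 10.6 times for Epcam (8.25 to 13.8), 12.1 times for Muc1 (7.81 to 19.8) and 23.6 times for Krt19 (13.4 to 46.1). For Cldn4 the ratio of 79.6 set 117 reads against 1, and its interval ran from 14.0 to 3170. The SD of log2 CPM over the wild-type livers ran from 0.99 for Sox9 to 2.10 for Cldn4, against a median of 0.35 over all tested genes. It was at least 1 in 8 of the 9 duct genes and in 5.78% of tested genes. The 3 wild-type livers with the higher levels did not share an Rpph1 share. It was 0.331%, 0.899% and 0.304% there and 0.673% and 1.06% in wild-type libraries 4 and 5. Genes with a count numbered 17310, 17199 and 17607 in wild-type libraries 1, 2 and 3, and 16761 and 16754 in 4 and 5.

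Comparison of the genotypes asked whether loss of 1 copy of Midn goes with a different level of duct genes on this diet. All 9 genes had lower means in het-labelled livers, and in all 9 the 95% interval of the log2 fold change included 0. The log2 fold change of het-labelled over wild-type ran from −1.89 (SE 0.94) for Cftr to −0.45 (SE 0.51) for Sox9, with adjusted p between 0.351 and 0.645 in edgeR's quasi-likelihood test. Cftr averaged 2.77 ± 3.34 CPM in het-labelled livers and 10.1 ± 8.05 CPM in wild-type livers (SD, n = 3 and n = 5), and its 95% interval of −4.01 to 0.24 included 0. Krt19 averaged 1.99 ± 2.24 CPM in het-labelled livers and 6.03 ± 5.93 CPM in wild-type livers, a log2 fold change of −1.62 (SE 1.02). Epcam averaged 8.07 ± 8.78 CPM in het-labelled livers and 17.0 ± 13.8 CPM in wild-type livers, with a log2 fold change of −1.09 (SE 0.85). The intervals of all 9 genes reach below −1, so a level 2-fold lower in het-labelled livers lies within them as well as no difference.

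**Figure D4:**
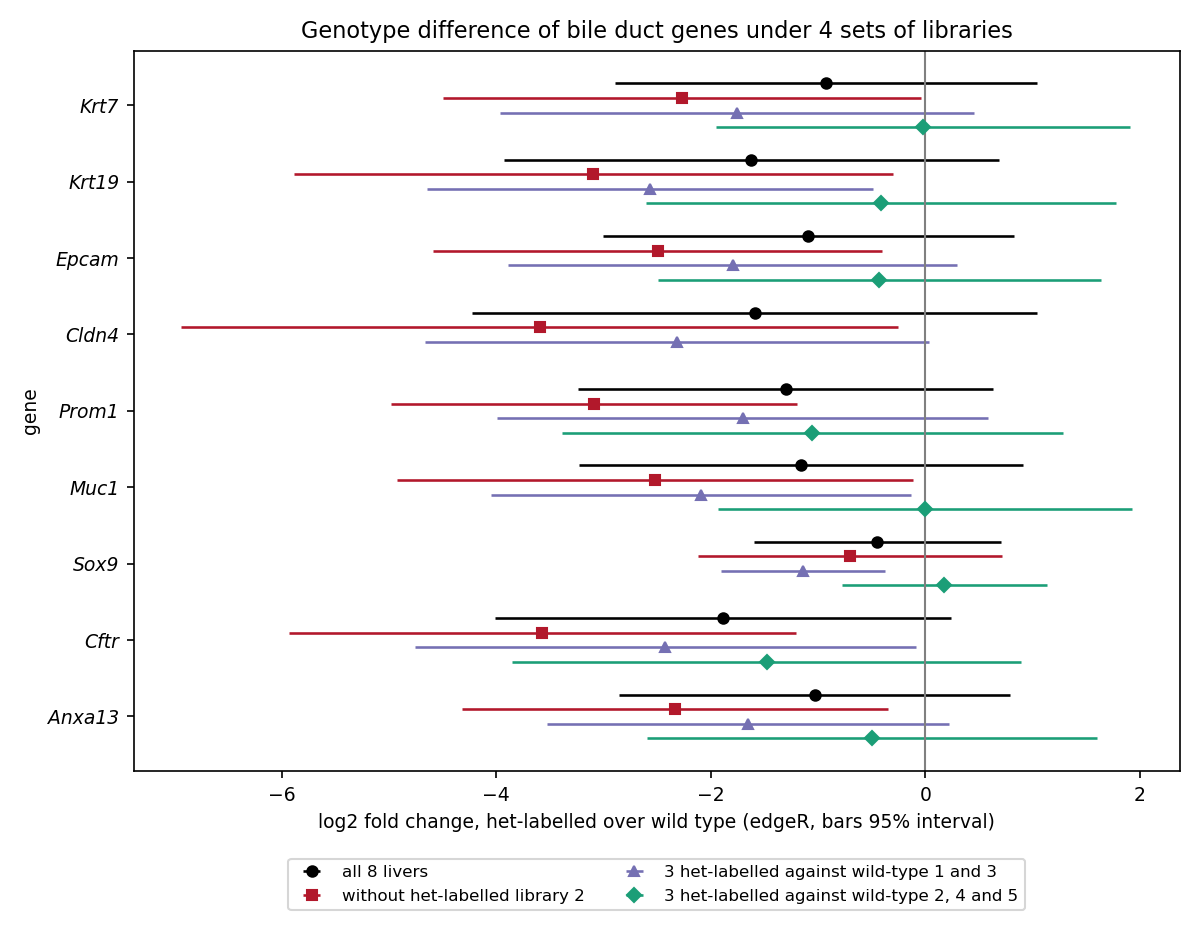
Log2 fold change of het-labelled over wild-type livers for each duct gene with its 95% interval, from all 8 livers and from the alternatives shown in the legend. All 9 intervals from all 8 livers include 0.

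The test called 0 of 14438 genes at an adjusted p under 0.05, or 0%, with either direction counted. At an unadjusted p under 0.05, 0 of the 9 duct genes were lower in het-labelled livers, while 5.43% of all tested genes were lower and 10.3% higher. The log2 fold change was negative in 9 of 9 duct genes and in 49.6% of tested genes, and its median was −1.16 over the 9 and 0.00 over all. DESeq2 called 0.528% of genes lower and 0.694% higher, with 0 of the 9 among them. At an unadjusted p under 0.05 it had 0 of the 9 lower, against 7.17% of genes. Its adjusted p for the 9 genes ran from 0.299 to 0.621. No duct gene had groups that did not overlap, against 2.32% of tested genes with every het-labelled library below every wild-type library and 7.54% with every one above. The 9 genes were measured in the same 8 livers, so 9 negative values are not 9 independent observations.

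The size of the difference depended on which livers were compared. Without het-labelled library 2, 8 of the 9 genes were lower at an unadjusted p under 0.05 in edgeR, against 11.1% of tested genes, with Sox9 the exception at −0.70. Prom1 then had a log2 fold change of −3.09 and Cftr one of −3.57, and the adjusted p of the 9 genes ran from 0.0922 to 0.505. Without wild-type library 3 the median log2 fold change of the 9 genes was −0.73. Without wild-type library 4, 1 gene, Cftr, was lower at that threshold, against 6.07% of tested genes. Wild-type libraries 1 and 3 had Rpph1 shares close to those of the het-labelled livers. Against them alone, 4 of the 9 genes were lower at an unadjusted p under 0.05, Sox9, Krt19, Muc1 and Cftr, beside 14.9% of tested genes. At an adjusted p under 0.05, 0 of the 9 were lower there, beside 0.0478% of genes. Against wild-type libraries 2, 4 and 5, 0 were lower, beside 18.7% of tested genes, and the Sox9 log2 fold change was 0.18. The summed level of the 9 genes was 86.6 and 177.7 CPM in wild-type libraries 1 and 3. It was 110.7, 21.7 and 33.4 CPM in wild-type libraries 2, 4 and 5. The 2 comparisons thus differ in the duct gene level of the wild-type livers kept, as well as in Rpph1 share. The part of Rpph1 share in these differences was not tested.

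Per length of transcript, in the authors' RPKM, Epcam was the most abundant of the 9 genes by the mean of each group, and Cldn4 the least. Epcam averaged 3.77 ± 4.12 RPKM in het-labelled livers and 8.17 ± 6.82 RPKM in wild-type livers (SD, n = 3 and n = 5). By wild-type means Anxa13 came next, with 2.87 ± 3.0 RPKM in het-labelled livers and 5.94 ± 4.21 RPKM in wild-type livers. Sox9 followed, with 3.06 ± 0.917 RPKM in het-labelled livers, above Anxa13 there, and 4.27 ± 2.85 RPKM in wild-type livers. Below them in wild-type livers came Krt19 at 4.24 ± 4.29, Prom1 at 3.58 ± 2.37, Krt7 at 2.76 ± 2.56, Muc1 at 2.57 ± 2.40, Cftr at 1.58 ± 1.28 and Cldn4 at 1.26 ± 1.05 RPKM. Neighbours in this order did not differ beyond their spread between livers. Epcam ranked first in 6 libraries, and Sox9 ranked first in het-labelled libraries 1 and 3.

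Other genes of bile duct epithelium showed the same livers highest in part. Over all tested genes, 9.59% had those 4 libraries highest and 49.6% had a negative log2 fold change. Among 15 tested genes of duct structure, 9 had the same 4 highest libraries, 13 had a negative log2 fold change, and 0 passed an unadjusted p under 0.05. The smallest p among them was that of Spint2, which went the other way. Its log2 fold change was 0.46, with an adjusted p of 0.369 in edgeR. Cd24a, a surface glycoprotein of progenitor and duct cells, had 10.2, 56.2 and 6.86 CPM in het-labelled libraries 1 to 3, against 41.7, 93.9, 91.0, 18.5 and 40.9 CPM in wild-type libraries 1 to 5. Of 12 genes for duct transcription factors and splicing regulators, 7 had those 4 libraries highest and 9 were negative. At an unadjusted p under 0.05, 1 was higher, Esrp2 at 0.43, beside 10.3% of tested genes. Grhl2, a grainyhead-like factor that controls claudins and the epithelial barrier, had 0.323, 3.71 and 0.619 CPM in the het-labelled libraries, against 3.73, 4.17, 9.64, 0.989 and 1.14 CPM in the wild-type libraries. Sox4, a partner of Sox9 in duct development, had 8.85, 28.1 and 10.6 CPM in the het-labelled libraries, against 30.0, 42.6, 58.1, 14.8 and 18.4 CPM in the wild-type libraries. Both factors were highest in the same 4 livers as the 9 genes.

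Of 10 genes of bile secretion and reabsorption, 4 had the same 4 highest libraries. At an unadjusted p under 0.05, 1 was higher, beside 10.3% of tested genes. This was P2ry2, an ATP receptor, at a log2 fold change of 0.65. Aqp1, a water channel, had every het-labelled library above every wild-type library, as did 7.54% of tested genes. It had 68.1 to 84.5 CPM in het-labelled livers and 60.3 to 67.1 CPM in wild-type livers. Its log2 fold change was 0.24, with an adjusted p of 0.357 in edgeR. Sctr, the secretin receptor upstream of Cftr, had 0.415, 1.45 and 0.286 CPM in het-labelled libraries 1 to 3, against 2.09, 1.29, 4.48, 0.439 and 1.02 CPM in wild-type libraries 1 to 5. Slc10a2, the apical bile acid transporter, had another order, with 34.9, 46.7 and 45.9 CPM in the het-labelled libraries, against 38.1, 82.3, 31.5, 63.2 and 93.3 CPM in the wild-type libraries. Of 9 genes of the primary cilium and fibrocystin, 4 had the same 4 highest libraries and 0 passed that threshold. Pkhd1, which encodes fibrocystin, had 63.0, 192.3 and 53.3 CPM in the het-labelled libraries, against 173.8, 246.5, 368.2, 75.0 and 96.6 CPM in the wild-type libraries. Pkhd1 and Sctr therefore resembled Cftr in which livers were high, and Slc10a2 and Aqp1 did not.

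Of 13 genes for secreted and injury signals of the ductular reaction, 6 had the same 4 highest libraries and 10 were negative. At an unadjusted p under 0.05, 2 were lower, beside 5.43% of tested genes. Tnfrsf12a, the receptor of the TWEAK signal that drives duct cell growth in mice, had 4.56, 8.29 and 8.67 CPM in het-labelled libraries 1 to 3, against 8.97, 14.99, 11.9, 13.4 and 10.8 CPM in wild-type libraries 1 to 5. Its groups did not overlap, with every het-labelled library below, as in 2.32% of tested genes. Its log2 fold change of −0.74 had an adjusted p of 0.268 in edgeR. The other was Tff3, a trefoil peptide, at −3.03 with an adjusted p of 0.286. Of 11 Notch pathway genes, which direct duct cell fate, 9 were negative with a median of −0.20, and 0 passed the threshold. That median was 0.20 against wild-type libraries 2, 4 and 5 alone. Of 10 genes listed for YAP and TEAD, 1 was lower and 1 higher at an unadjusted p under 0.05. Over all tested genes 5.43% were lower and 10.3% higher. Axl was the lower at −0.45, with every het-labelled library below every wild-type library. Yap1, which is YAP itself and not a target, was the higher at 0.50, with every het-labelled library above. Such separation was found in 2.32% and 7.54% of tested genes. The list's median of −0.08 was 0.02 without het-labelled library 3. Those 2 lists had the same 4 highest libraries in 4 and 3 genes.

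**Figure D5:**
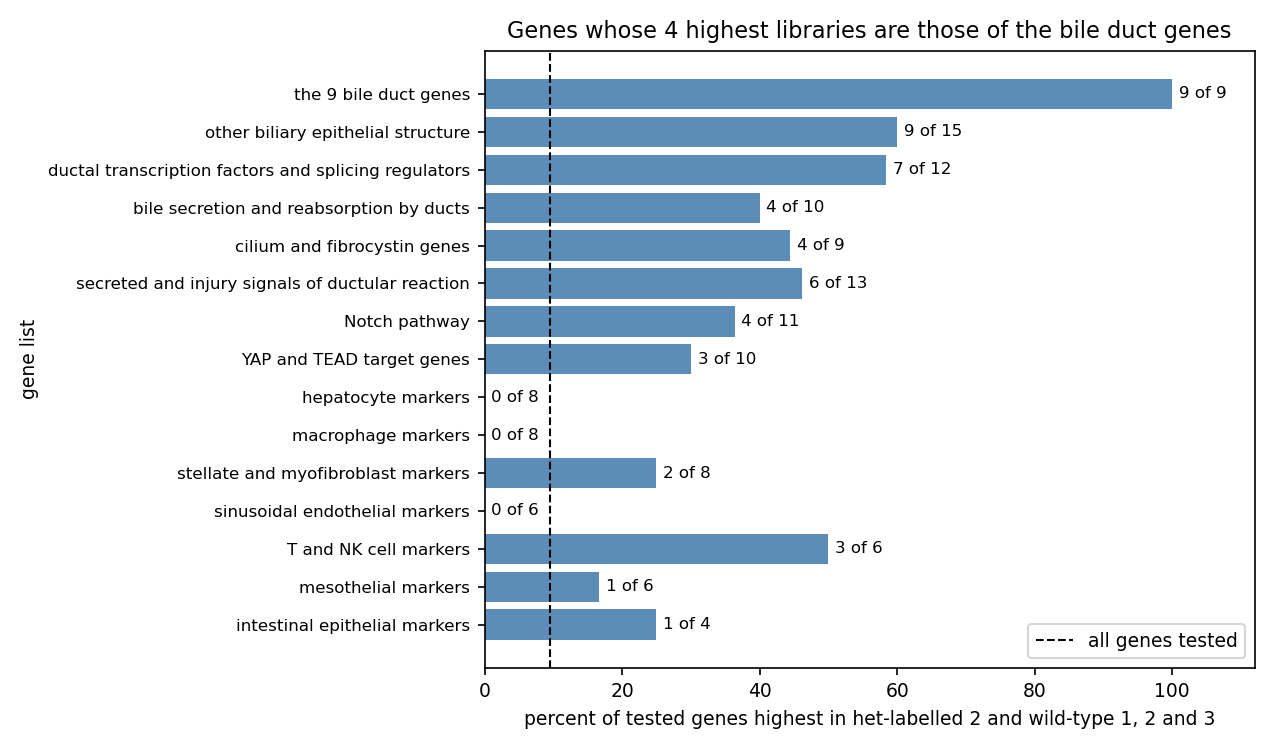
Share of the tested genes of each list, in percent, whose 4 highest libraries are het-labelled library 2 and wild-type libraries 1, 2 and 3, for lists with at least 4 tested genes. The dashed line marks all tested genes at 9.59%, and the 9 duct genes stand at 9 of 9.

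Markers of other cells did not share that order in full. Of 8 hepatocyte markers 0 had the same 4 highest libraries, and their summed level ran from 40318 to 72002 CPM in het-labelled livers and from 37488 to 44840 CPM in wild-type livers. Hepatocyte markers were highest in het-labelled libraries 1 and 3, where most of the duct genes were lowest. Of 8 macrophage markers 0 had those libraries highest, with sums of 570 to 848 CPM in het-labelled livers and 591 to 1800 CPM in wild-type livers. Stellate and myofibroblast markers had 2 of 8, Col3a1 and Pdgfrb, with sums of 726 to 1544 CPM in het-labelled livers and 1283 to 1686 CPM in wild-type livers. T and NK cell markers had 3 of 6 and sums of 56.0 to 107 CPM in het-labelled livers and 113 to 175 CPM in wild-type livers. These sums were mostly Ptprc, which other white blood cells also carry. Ptprc alone had 52.0 to 99.3 CPM in het-labelled livers and 106 to 168 CPM in wild-type livers. Its groups did not overlap, with every het-labelled library below, as in 2.32% of tested genes. Mesothelial markers had 1 of 6, sinusoidal endothelial markers 0 of 6. Their summed ranges were 5.43 to 19.0 and 348 to 468 CPM in het-labelled livers, and 12.6 to 25.9 and 340 to 408 CPM in wild-type livers. At an unadjusted p under 0.05 in edgeR, 2 of 6 T and NK cell markers were lower, beside 5.43% of tested genes. At that threshold 3 of 8 hepatocyte markers and 1 of 6 sinusoidal endothelial markers were higher, beside 10.3% of tested genes. The part of these cells in the duct gene levels was not tested.

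Gallbladder, pancreas and intestine carry some of the same epithelial genes and can be taken along with the liver. Of 7 gallbladder and mucous gland markers, 5 (Muc5b, Muc5ac, Gkn3, Clca1 and Agr2) had 0 reads in all 8 libraries. The list summed to 2.07 to 2.81 CPM in het-labelled livers and 2.83 to 3.86 CPM in wild-type livers. Sox17, its 1 tested gene, had every het-labelled library below every wild-type library, as in 2.32% of tested genes. Pancreatic acinar markers summed to 9.43 to 11.1 CPM in het-labelled livers and 8.14 to 19.4 CPM in wild-type livers, and Amy2a5 had 0 reads. Cela1 alone had 9.39 to 10.9 CPM in het-labelled livers and 7.86 to 19.1 CPM in wild-type livers. Of 8 intestinal markers, Cdx1 and Cdx2 had 0 reads, and the sum of 202 to 292 CPM in het-labelled livers and 72.6 to 808 CPM in wild-type livers was mostly Fabp2. Vil1, a microvillus protein also found in bile duct epithelium, was the 1 tested intestinal marker of 4 with the same 4 highest livers.

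Outside the 9 genes, the pattern over the 8 libraries was nearest in Slc5a1, a sodium-glucose transporter. Its log2 CPM, centred on its mean, differed from the mean of the 9 genes by a root mean square of 0.09, among 13337 genes with a mean of at least 1 CPM. Next came Scara3, a scavenger receptor, at 0.12, and Ehf, an epithelial ETS factor, at 0.15. Fermt1, Dab1, Lrriq1, Col4a5, Slc44a4 and Fut2 were at 0.19 to 0.22. The 9 genes themselves lay between 0.21 for Epcam and 0.78 for Sox9.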

How the data were processed

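Liver messenger RNA of 3 het-labelled and 5 wild-type mice was sequenced from KAPA mRNA HyperPrep libraries, per the labels' protocols. The submitters' processing notes name bcl2fastq 2.18.0.12, STAR, HTSeq and build mm10, and neither other versions nor annotation, counting mode or strand setting are stated there. The authors deposited raw counts per gene, RPKM values and exon lengths for 25078 genes. Unused sample columns numbered 0. Totals of 17508221 to 24916239 counts per library limit the precision of low genes, for which 95% Poisson or binomial intervals are given.

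Low genes were removed by filterByExpr in edgeR (minimum count 10, minimum total 15), and counts were scaled by TMM to CPM. The two-sided quasi-likelihood test of edgeR, fitted robustly, was adjusted by Benjamini-Hochberg over 14438 genes at 0.05. Shares were compared by exact permutation. The labels describe no litters or batches, and replicate numbers follow accession order, so p-values reflect only how these samples vary, which may be technical.

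The members, gene lists and tests were chosen with earlier results of these data known. Of 162 listed symbols, 3 were not in the table (Cyr61, Ctgf and Tf). Genes named are the 9 members, Midn, Rpph1, per list up to 4 tested genes of smallest p, and the 10 nearest in pattern, of which 1 is not reported here. Those outside this rule were named for their values. Alternatives were other tests (DESeq2, limma-voom, and limma on log2(RPKM + 0.1) or log2(RPKM + 1)), other scalings (RLE, library size only), other filters (none, or mean CPM of 1 or more), non-robust fitting, thresholds of 0.01 and 0.1, wild-type libraries 1 and 3 or 2, 4 and 5 alone, and each library left out. Leaving out libraries for the Sox9 share was added after seeing the data. Motifs were searched on both strands of RefSeq promoters of GRCm38.p6, the build that mm10 names. Overlapping transcripts were read from the GENCODE annotation by gene span, without comparing exons. Software comprised Python 3.11.15 with pandas 2.3.3 and matplotlib 3.10.9, and R 4.3.3 with DESeq2 1.42.0, edgeR 4.0.16 and limma 3.58.1.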

Additional observations from a re-analysis of the deposited data

How the results depend on the processing

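The number of genes called was 0 with all 8 livers in edgeR, 176 in DESeq2, 21 against wild-type libraries 1 and 3 alone and 2632 against wild-type libraries 2, 4 and 5 alone; the cause was not tested. In edgeR with all 8 livers, an unadjusted p under 0.05 was reached by 1487 higher and 784 lower genes. The number of duct genes lower at that threshold was 0, and 4 against wild-type libraries 1 and 3. With 1 library left out it ran from 0 to 8, the highest being without het-labelled library 2, and it was 1 when wild-type library 4 was left out. None of the 9 passed an adjusted p under 0.05 under any alternative run. The log2 fold change of Sox9 turned to 0.18 against wild-type libraries 2, 4 and 5, which had 19.2, 7.03 and 7.59 CPM of it. Wild-type libraries 1 and 3, left out of that comparison, had 20.6 and 35.2 CPM. The cause of this spread was not tested. Against wild-type libraries 2, 4 and 5, Cldn4 did not pass the filter and gave no value. The median log2 fold change of the 9 genes ran from −2.52 without het-labelled library 2 to −0.42 against wild-type libraries 2, 4 and 5. Library size alone moved the median of all genes to −0.18 and that of the 9 genes to −1.37. No paired analysis was possible because the titles carry a different number for each animal and the replicate numbers follow accession order. Depth limits Cldn4 most, with 1 to 117 reads per library.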

Other observations

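Tff3 and Gucy2c, genes of mucous and intestinal epithelium, differed between livers in another way than the duct genes. Tff3 had 0.922, 0.430 and 0.381 CPM in het-labelled libraries 1 to 3, against 7.15, 10.1, 5.94, 0.110 and 0.542 CPM in wild-type libraries 1 to 5. Gucy2c, a guanylate cyclase receptor, had 0.230, 0.108 and 0.0477 CPM in the het-labelled libraries, against 5.33, 4.33, 4.18, 1.76 and 0.542 CPM in the wild-type libraries. Both were low in het-labelled library 2, where the 9 duct genes were high, and both were high in wild-type libraries 1, 2 and 3. Gucy2c did not overlap between the groups, with every het-labelled library below, as in 2.32% of tested genes. Its log2 fold change was −4.58, with an adjusted p of 0.259 in edgeR and 0.000149 in DESeq2. It was called in DESeq2 alone, where 0.528% of genes were called lower.

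Spp1 and Mmp7 were chosen after their values were seen. Spp1, osteopontin, which duct cells and macrophages secrete, had 130, 690 and 141 CPM in het-labelled libraries 1 to 3, against 421, 778, 769, 392 and 435 CPM in wild-type libraries 1 to 5. Mmp7, a matrix protease made by duct cells, had 1.20, 22.9 and 1.19 CPM in the het-labelled libraries, against 18.0, 56.5, 44.1, 2.20 and 7.28 CPM in the wild-type libraries. In both genes het-labelled libraries 1 and 3 were below every wild-type library and het-labelled library 2 was not.

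Ass1, an enzyme of the urea cycle that is abundant in hepatocytes, had 0.108 to 0.429 CPM in het-labelled livers and 0.1204 to 0.670 CPM in wild-type livers in the deposited counts, and was also named after its values were seen. Neither the labels nor the processing notes say how reads matching several places in the genome were counted, so these values are not read here as its RNA level.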
